A study of Homo sapiens with 14 samples.

Results

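The established human colorectal cancer lines RKO and SW620 were compared for the genes each needed to keep growing without drug. Every gene shared by the knockout guide tables of both lines was taken, which gave 19114 genes, and 19071 of them had enough guides to be summarised. The difference was computed guide by guide, as the day 20 over day 0 change in RKO minus the same change in SW620, and was then summarised per gene. The whole series held 14 libraries and 19515 genes, and 4 of those libraries entered this comparison.

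All 4 libraries came from cells carrying Cas9 and the Brunello guide library. This is a genome-wide pool of lentiviral guides, each of which directs Cas9 to cut 1 gene. Cells were selected with blasticidin for Cas9 and with puromycin for the guides over 3 days, after transduction. At this transduction most cells take up a single guide. The labels do not say how day 0 lies to the days of selection. The groups were RKO at day 20, RKO at day 0, SW620 at day 20 and SW620 at day 0, all untreated, with 1 library each. RKO grew in EMEM and SW620 in RPMI, so line and medium cannot be told apart. Nor can line and screen, since each line was screened once. No difference below was checked against the spread between cultures, and no p-values are given.

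In such a pool, cells that lose a gene they need divide less or die, and the guides against that gene become rarer in the genomic DNA. RKO is known as a microsatellite-unstable line with mutant BRAF and PIK3CA and intact APC. SW620 is known as a microsatellite-stable line with truncated APC. The guide counts hold no expression, so the identity of the lines could not be checked against marker genes.

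The libraries held 34540094 counts in RKO at day 20, 31699260 in RKO at day 0, 47429044 in SW620 at day 20 and 69526489 in SW620 at day 0. The median guide had 372, 352, 524 and 774 counts in the same order. In all, 1430 of 77441 guides had 0 counts in RKO at day 20, against 307 in SW620 at day 20. The log counts of the guides at day 0 correlated between the lines with a Pearson coefficient of 0.944 across guides, which are not independent replicates and share 1 plasmid design.

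Depletion was far deeper in RKO. Over 263 genes that most cells need (ribosome, proteasome, replication, splicing, ribosome biogenesis, and chaperonin, coatomer and tRNA synthetase genes), the median log2 change of guides was -3.44 in RKO and -0.76 in SW620. In RKO 2422 genes (12.7%) lay at or below -1 log2, against 348 (1.82%) in SW620. Subtraction of the log2 changes without scaling, with a threshold of 1 log2 and all guides on that side of 0, called 1698 genes more depleted in RKO and 9 less. Each line was therefore put on its own scale, on which olfactory receptor guides lie at 0 and the median of the 263 growth genes lies at -1. The difference between the scaled values, RKO minus SW620, is the line difference given below, so a negative value means relatively more depletion in RKO. On the log2 scale 1 scaled unit is 3.44 in RKO and 0.76 in SW620, and the same scatter in log2 is therefore wider on the SW620 scale. Non-targeting guides had an SD of 0.30 log2 in RKO and 0.20 log2 in SW620, which is 0.086 and 0.266 in scaled units. Olfactory receptor guides, which target genes, scattered more widely, with an SD of 0.58 log2 in RKO and 0.32 log2 in SW620.

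A gene was called when its median difference was at least 0.5 scaled units in either direction and all its kept guides lay on that side of 0. By this rule 272 of 19071 genes (1.43%) were relatively more depleted in RKO and 675 (3.54%) relatively less depleted in RKO, that is, relatively more depleted in SW620. Among 374 olfactory receptor genes, which these cells are not known to use, 2 and 4 were called (0.535% and 1.07%). Their central 95% range of differences was -0.47 to 0.43, and the median over all genes was 0.07.

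The direction toward SW620 depended on the scaling more than the direction toward RKO did. Of the 272 genes, 271 also had the same sign without scaling, and 212 of these differed by at least 1 log2. Of the 675, 508 kept their sign without scaling, 167 had the opposite sign, and 8 differed by at least 1 log2. As another allowance for the weaker depletion, each RKO change was set against the running median of RKO changes among genes with a similar change in SW620. Called by scaling and by the running median were 175 genes more depleted in RKO (0.918%) and 78 less depleted in RKO (0.409%), and no olfactory receptor gene. These are referred to as called both ways, a rule adopted after the values were seen. The running median itself leaned toward RKO among the 263 growth genes, at a median of -0.30. Alone it called 46 of them more depleted in RKO and none less, against 513 and 85 of all 19071 genes. Of the growth genes, 5 were called more depleted in RKO both ways.

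**Figure D1:**
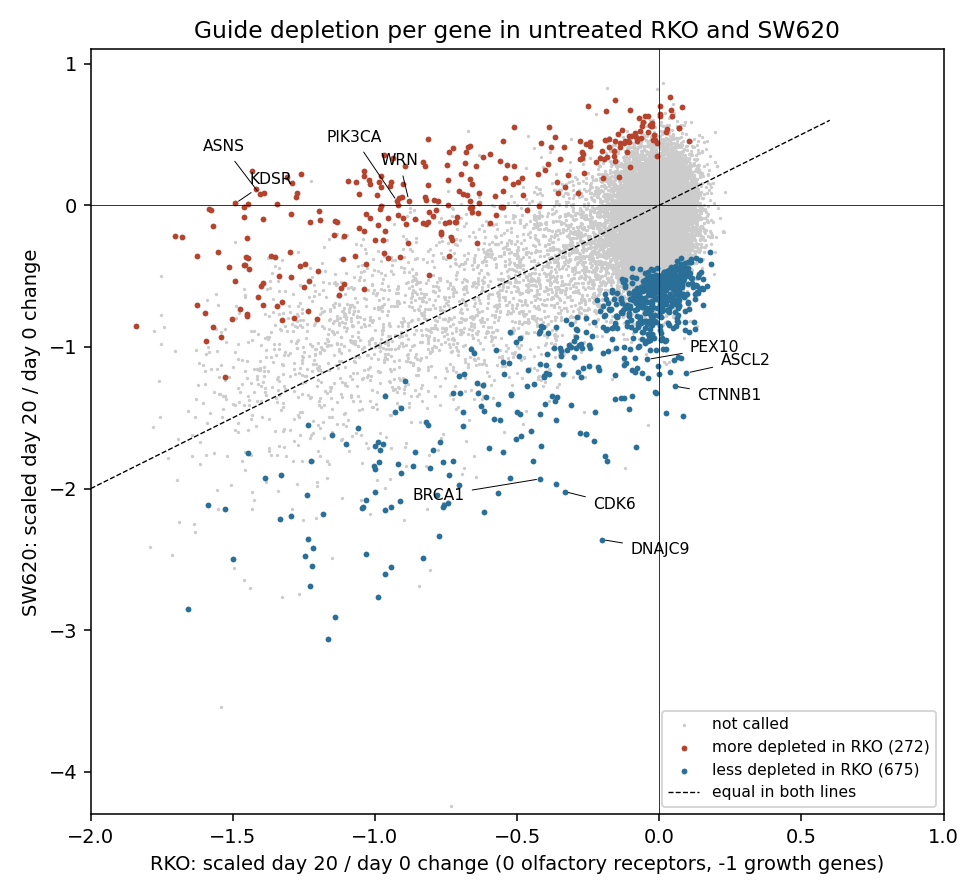
Scaled day 20 over day 0 change of each gene's guides in RKO (x axis) and SW620 (y axis), with 0 at olfactory receptor guides and -1 at the median growth gene. Each point is 1 gene, red for the 272 called more depleted in RKO, blue for the 675 called less depleted and grey for the rest, and the dashed line marks equal values. KDSR, ASNS, PIK3CA and WRN lie far left with SW620 values near 0, while CTNNB1 and ASCL2 lie low with RKO values just above 0.

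KDSR, the reductase of an early step of sphingolipid synthesis, had the largest difference toward RKO. Its 4 guides had 23, 2, 0 and 0 counts in RKO at day 20 and 255, 157, 253 and 200 at day 0. In SW620 they had 375, 339, 386 and 307 counts at day 20 and 628, 375, 567 and 379 at day 0. All guides were nearly lost in RKO, while in SW620, whose day 20 library was the shallower one, their share of the library barely moved. The median log2 change was -5.12 in RKO and 0.01 in SW620, and the line difference was -1.66. Where guides reach 0 counts, the RKO value is limited by the pseudocount of 5.

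The next largest difference toward RKO was that of GNPNAT1, a gene of hexosamine synthesis. GNPNAT1, which acetylates glucosamine phosphate on the way to UDP-GlcNAc, the sugar donor of N-glycans and O-GlcNAc, had 5, 20 and 0 counts in its 3 kept guides in RKO at day 20 and 302, 321 and 125 at day 0. In SW620 the same guides had 484, 648 and 252 counts at day 20 and 618, 651 and 339 at day 0. The line difference was -1.61. GFPT1, the first enzyme of this route, followed at -1.34 with a log2 change of -4.80 in RKO and -0.07 in SW620. PGM3, the mutase after GNPNAT1, also lay at -1.34, with -5.42 log2 in RKO and -0.02 in SW620. The last enzyme, UAP1, was flat in both lines (0.17 log2 each) and was not called. The route was put together after GNPNAT1 had been seen, so 3 of 4 is a description only.

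**Figure D2:**
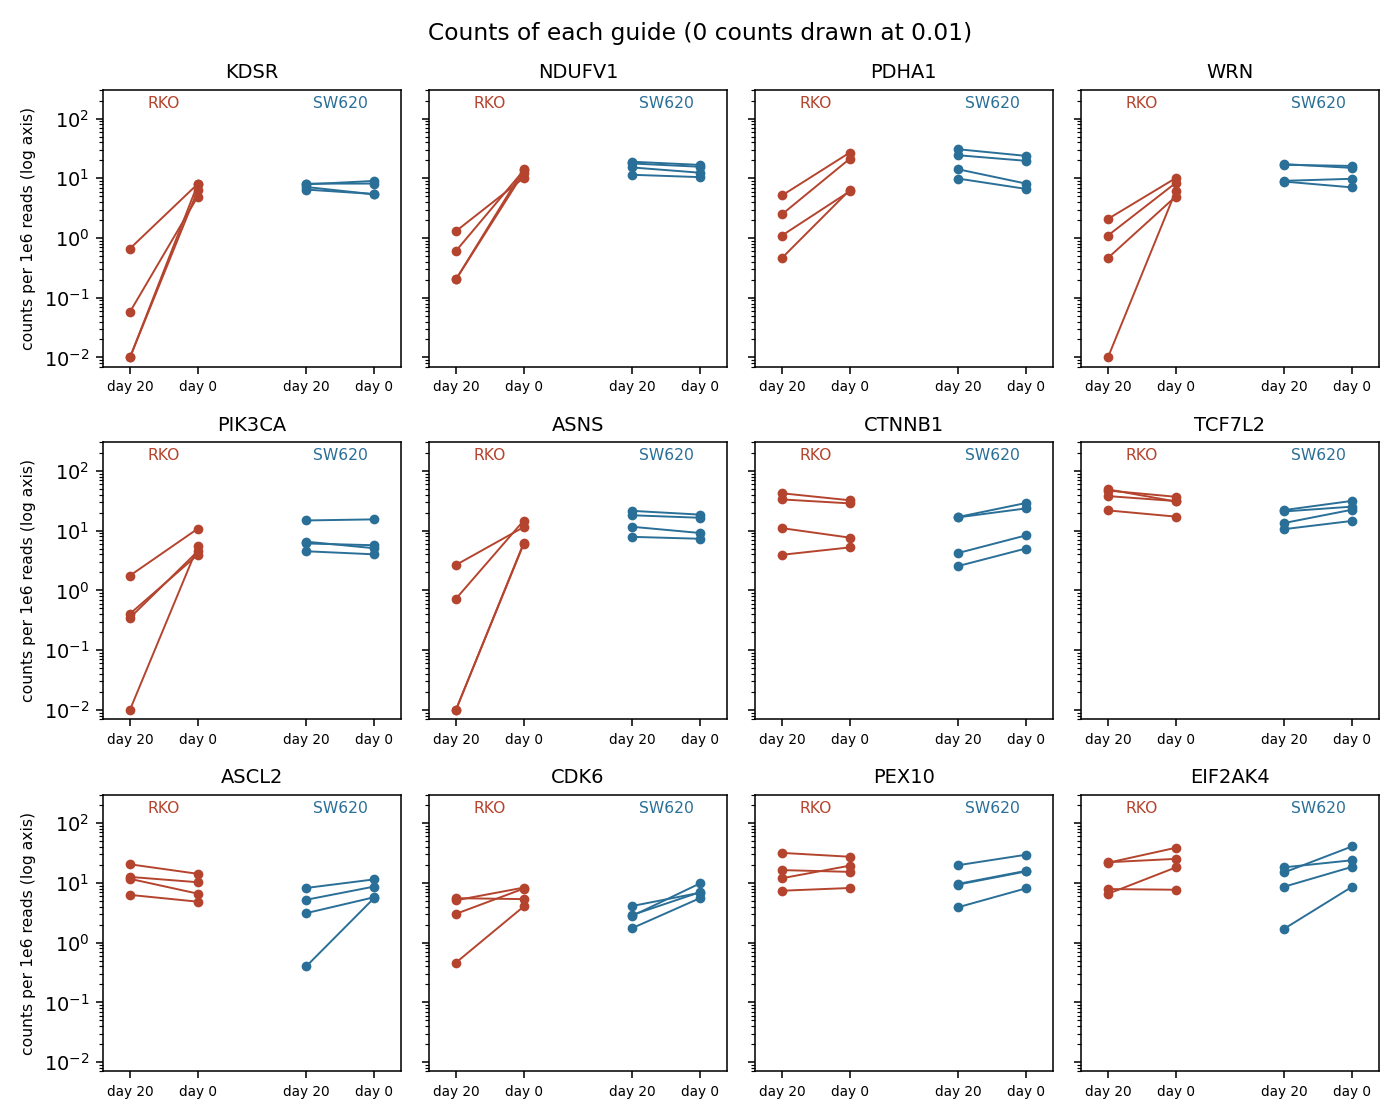
Abundance of each guide of 12 genes, as counts scaled to library size (CPM), at day 20 and day 0 in RKO (red, left) and SW620 (blue, right), on a log axis, 1 line per guide, with 0 counts drawn at 0.01. In the top row and for PIK3CA and ASNS the red lines climb steeply toward day 0 and the blue lines are flat, whereas for CTNNB1, TCF7L2 and ASCL2 the blue lines climb toward day 0 and the red ones, but for 1 CTNNB1 guide, do not.

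Respiratory complex I, the enzyme that passes electrons of NADH into the respiratory chain, was the gene list with the most calls toward RKO. Of its 53 measured subunits and assembly factors, 24 (45.3%) were called more depleted in RKO and none less, and 22 were called both ways, against 1.43% and 0.918% of all genes. The list's median log2 change was -2.31 in RKO and 0.04 in SW620, with a median line difference of -0.65 against 0.07 over all genes, and 46 of the 53 lay below 0. It lay at -0.61 by the running median and -2.31 without scaling.

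The calls covered core subunits, accessory subunits and assembly factors of complex I. NDUFV1, the core subunit that binds NADH, had 7, 7, 45 and 21 counts in RKO at day 20 and 452, 395, 321 and 431 at day 0. In SW620 it had 840, 720, 543 and 898 counts at day 20 and 1084, 862, 727 and 1165 at day 0. Its guides thus fell to a small fraction in RKO and kept their share in SW620, and the line difference was -1.51. The accessory subunits NDUFB4, NDUFA2 and NDUFB3 had differences of -1.55, -1.29 and -1.27. The assembly factors FOXRED1 and NDUFAF6 had -1.47 and -1.45. NUBPL (-1.29) and NDUFA8 (-1.15) were as far down but had 1 guide on the other side, so they were not called. NDUFA7 (0.61) and NDUFAB1 (0.24) were among the 7 members above 0.

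Complexes II to V, which complete the chain and make ATP, had 12 of 61 members called more depleted in RKO (19.7%) and none less. All 12 were called both ways, and the shares over all genes were 1.43% and 0.918%. The 61 members had a median of -2.95 log2 in RKO and -0.28 in SW620, with a median difference of -0.41. By the running median the difference was -0.52, where the 263 growth genes lay at -0.30. COA7 and PET117, assembly factors of cytochrome c oxidase, stood at -1.60 and -1.45. COX15, which makes the heme A of that enzyme, stood at -0.99. The ATP synthase subunits ATP5A1, ATP5C1 and ATP5B stood at -1.11, -0.93 and -0.89. At the other end, the complex II and III members SDHD (0.49) and CYC1 (0.43) were not called.

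The mitochondrial ribosome, which translates the respiratory subunits encoded in mitochondrial DNA, was depleted in both lines. Its 78 genes had a median of -2.64 log2 in RKO and -0.57 in SW620, and a median line difference of -0.18. Of these, 4 (5.13%) were called more depleted in RKO and 1 (1.28%) less, against 1.43% and 3.54% of all genes. MRPS33 at -0.69 and MRPL18 at -0.54 were among those more depleted. In SW620 the list of mitochondrial ribosomal genes lay lower than that of complex I (0.04 log2), while both lay far below 0 in RKO.

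Enzymes that feed the chain also had many calls toward RKO. In the list of the TCA cycle and malate-aspartate shuttle, 9 of 25 genes (36.0%) were called more depleted in RKO, 8 of them both ways. Only 1 was called less depleted (4.0%), and the list's median difference was -0.23. Over all genes the shares were 1.43% more depleted, 0.918% both ways and 3.54% less depleted. CS, the citrate synthase that starts the cycle, had 8, 30, 1 and 193 counts in RKO at day 20 and 644, 377, 246 and 628 at day 0. In SW620 CS had 1210, 741, 273 and 1201 counts at day 20 and 1512, 1385, 398 and 1468 at day 0. In RKO 3 of its 4 guides were strongly depleted and 1 less so, in SW620 all kept most of their share, and the line difference was -1.12. IDH2, which makes alpha-ketoglutarate and NADPH, stood at -1.05, FH, the fumarase, at -0.70, and OGDH, a subunit of the alpha-ketoglutarate dehydrogenase, at -0.65. SLC25A1, the citrate carrier, stood at -0.93 and was called by scaling alone.

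Pyruvate dehydrogenase, which turns pyruvate into the acetyl-CoA used by the cycle, had the same direction. PDHA1, its catalytic alpha subunit, had 16, 86, 38 and 178 counts in RKO at day 20 and 201, 672, 192 and 853 at day 0. In SW620 PDHA1 had 671, 1153, 469 and 1453 counts at day 20 and 567, 1364, 462 and 1650 at day 0. Every PDHA1 guide lay below 0 in RKO and above 0 in SW620, with medians of -2.80 and 0.36 log2 and a line difference of -1.24. The beta subunit PDHB stood at -1.14 and DLAT, which carries the lipoyl arm, at -0.78.

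The cofactor routes of these dehydrogenases were then collected after the values had been seen, among them lipoate synthesis and the mitochondrial fatty acid synthesis that supplies it. Of the 14 genes in the collection, PDH subunits included, 11 were called more depleted in RKO, all 11 both ways. Over all genes the shares were 1.43% and 0.918%. Because the members were chosen with their values known, 11 of 14 is a description only. MECR, the last enzyme of mitochondrial fatty acid synthesis, had 4, 11, 8 and 3 counts in RKO at day 20 and 618, 625, 396 and 507 at day 0, and a difference of -1.49. In SW620 MECR had 1042, 955, 711 and 785 counts at day 20 and 1531, 1418, 1265 and 1230 at day 0. MCAT, of the same route, stood at -0.67, and FDX1, a ferredoxin that serves lipoate synthesis, at -1.13. The lipoate enzymes LIPT1, LIAS and LIPT2 stood at -1.37, -0.65 and -0.59. OXSM (-0.78) and DLD (-0.85), the shared dehydrogenase subunit, each had a guide on the other side, and FDXR lay at 0.23.

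**Figure D3:**
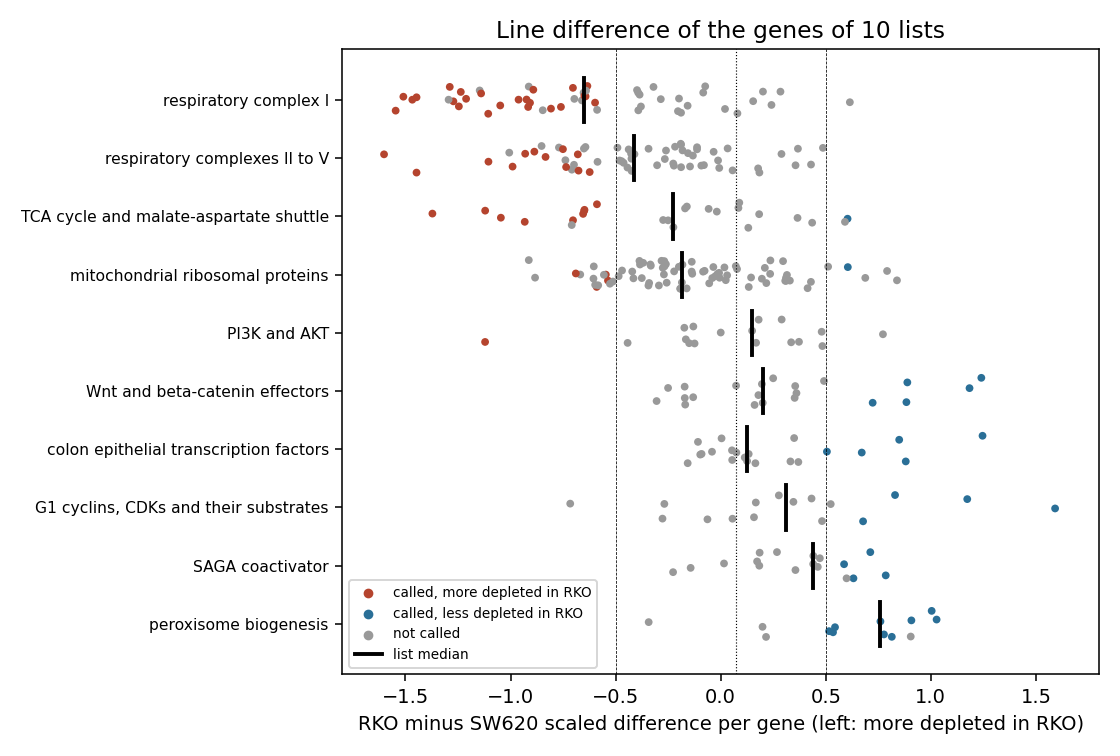
RKO minus SW620 scaled difference (x axis) of each gene in 10 lists, with red points for genes called more depleted in RKO, blue for those called less depleted, grey for the rest and a black bar at each list's median. Dashed lines mark the call threshold of 0.5 on either side and the dotted line the median of all genes, 0.07. Complex I has its median at -0.65 and peroxisome biogenesis at 0.76, while the PI3K list has a single red point, PIK3CA.

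ASNS, which makes asparagine from aspartate, was the amino acid enzyme furthest toward RKO. It had 25, 0, 0 and 92 counts in RKO at day 20 and 468, 190, 197 and 363 at day 0. In SW620 it had 1016, 373, 550 and 857 counts at day 20 and 1289, 508, 635 and 1142 at day 0. The medians were -4.83 log2 in RKO and 0.06 in SW620, with a line difference of -1.47. ALDH18A1, the first committed enzyme of proline synthesis, also stood toward RKO at -0.65.

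GCN2 and serine synthesis genes lay on the other side. EIF2AK4, the kinase GCN2 that responds to uncharged tRNA, had 273, 752, 768 and 227 counts in RKO at day 20 and 244, 1230, 802 and 576 at day 0. In SW620 it had 81, 711, 866 and 410 counts at day 20 and 598, 2838, 1667 and 1290 at day 0. Every guide lay below 0 log2 in both lines, with medians of -0.63 in RKO and -1.38 in SW620. The line difference was 1.44 by scaling and 0.40 log2 without scaling. PHGDH and PSAT1, the first enzymes of serine synthesis, stood at 0.94 and 0.56, and SHMT1, which exchanges serine and glycine, at 0.69, all by scaling alone. ATF4, the transcription factor downstream of GCN2, stood at 0.54 by scaling but at -0.58 log2 without it. The list of 26 amino acid synthesis genes holds GCN2 beside enzymes. Of its genes 2 (7.69%) were called more and 5 (19.2%) less depleted in RKO, against 1.43% and 3.54% of all genes. The list's median was 0.11. The media of the lines differ, and the part of medium in these values was not tested.

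Genes that restrain or carry the lines' known driver pathways differed in part. PIK3CA, the catalytic subunit of PI3K that is mutant in RKO, had 61, 12, 14 and 0 counts in RKO at day 20 and 341, 143, 125 and 172 at day 0. In SW620 PIK3CA had 702, 310, 214 and 289 counts at day 20 and 1073, 353, 279 and 396 at day 0. The line difference was -1.12. PIK3CA was the only called gene among 17 of the PI3K and AKT list (5.88%, against 1.43% of all genes), whose median was 0.15. Farther down the route, MLST8, a subunit shared by both mTOR complexes, stood at -0.82. LAMTOR2, a scaffold of amino acid sensing by mTORC1, stood at 0.71 by scaling, and its sign turned to -0.16 log2 without scaling. Of 23 genes of mTORC1 and its activators, 1 (4.35%) was called more and 2 (8.70%) less depleted in RKO. The shares over all genes were 1.43% and 3.54%, and the list median was 0.11.

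WRN, a RecQ helicase known to be needed by microsatellite-unstable cancer cells, followed the same pattern as PIK3CA. Its guides had 0, 38, 16 and 72 counts in RKO at day 20 and 192, 265, 157 and 319 at day 0. In SW620 they had 797, 430, 418 and 820 counts at day 20 and 1120, 682, 490 and 1038 at day 0. The medians were -3.03 log2 in RKO and 0.03 in SW620, and the difference was -1.0. No other gene of the 14 in the mismatch repair and RecQ list was called, a share of 7.14% against 1.43% of all genes. The median of the list was -0.04.

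MDM2, a ubiquitin ligase, was called more depleted in RKO at -0.55, with medians of -2.27 log2 in RKO and -0.01 in SW620. Its guides had 0, 241, 159 and 13 counts in RKO at day 20, against 92, 539, 151 and 132 at day 0. In SW620 they had 652, 916, 641 and 929 counts at day 20 and 936, 1189, 751 and 1477 at day 0. The RKO guides were already rare at day 0, at -1.71 log2 relative to SW620. In the list of 9 regulators that holds MDM2, among them the deubiquitinase USP7 and the phosphatase PPM1D, MDM2 alone was called (11.1%, against 1.43% of all genes). The other 8 lay above 0 and the median was 0.23 (-0.16 by the running median). CDKN1A, which encodes an inhibitor of the cell cycle, was not called and had -0.19 log2 in RKO and 0.27 in SW620. Non-targeting guides lay at 0.33 in RKO and 0.12 in SW620 on the same scale. CDKN1A and BRAF are given although the naming rule does not take them.

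BRAF, the kinase that is mutant in RKO, leaned toward RKO without a call. Its guides had 138, 106, 194 and 102 counts in RKO at day 20 and 168, 249, 388 and 253 at day 0. In SW620 BRAF had 496, 407, 457 and 451 counts at day 20 and 386, 490, 783 and 461 at day 0. The difference was -0.80, with single guides between -1.19 and 0.08. Upstream of RAS, the phosphatase PTPN11 and the adaptor GRB2 were called less depleted in RKO at 0.82 and 0.51, but both turned sign without scaling (-0.08 and -0.11 log2). SPRY2, DUSP4 and SPRED2, which dampen ERK signalling, were called at 0.95, 0.64 and 0.61, SPRY2 alone both ways. They were the only ones called of 14 genes that restrain RAS and ERK (21.4%), with a list median of 0.07. PTPN11 and GRB2 were the only ones called of 28 genes in the RAS, RAF, MEK and ERK list (7.14%), with a median of 0.14. Over all genes 3.54% were called less depleted in RKO, and the median was 0.07.

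Guides against growth genes were already rarer in RKO than in SW620 at day 0. Over the 263 growth genes the day 0 guides lay 0.82 log2 lower in RKO than in SW620 (-0.82), after both were set to 0 at olfactory receptor guides. This was -1.31 for cytosolic ribosomal proteins, -1.17 for the proteasome and -0.34 for replication fork proteins. MDM2 at -1.71 and the survival gene MCL1 at -1.61 lay lower than any of these list medians, and MYC lay at -0.98. PIK3CA (-0.16), NDUFV1 (-0.14) and CTNNB1 (0.06) were near 0 at that time. The labels do not say how day 0 lies to the days of selection, and changes counted from day 0 do not hold this difference. For complex I it was small, at -0.12. The growth genes also set the unit of the scale, and how their gap bears on scaled differences, that of complex I included, was not tested.

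**Figure D4:**
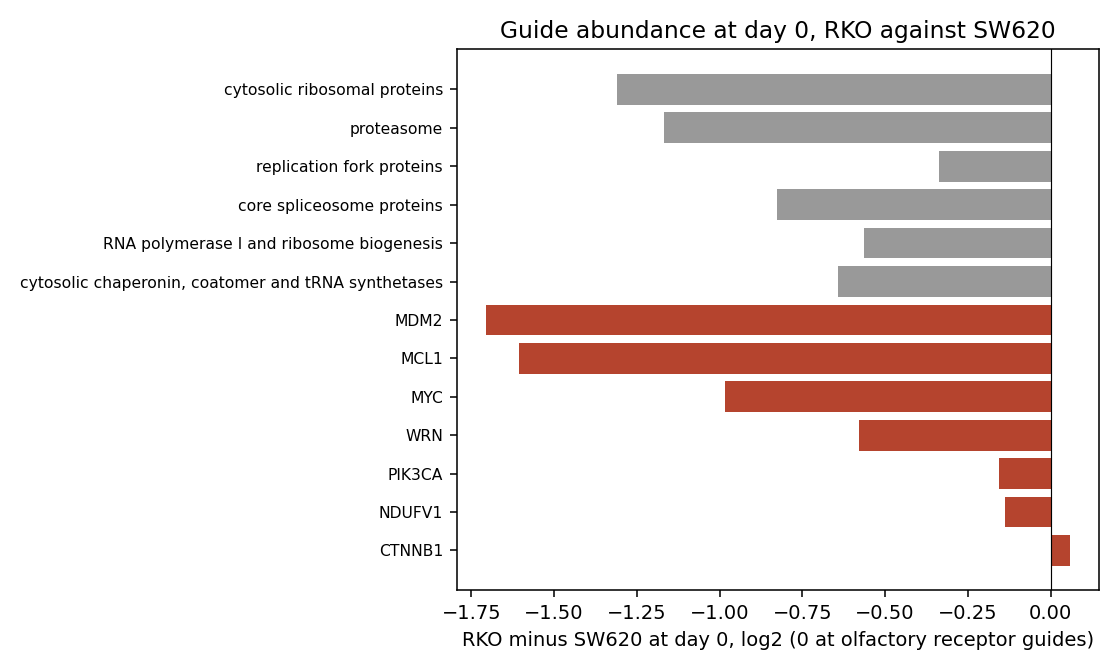
RKO minus SW620 guide abundance at day 0 in log2, with 0 at olfactory receptor guides, as bars for the medians of 6 growth lists (grey) and for 7 genes (red). MDM2 at -1.71 and MCL1 at -1.61 reach further than the list of cytosolic ribosomal proteins at -1.31, and CTNNB1 lies at 0.06.

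Toward SW620, beta-catenin and its partner on DNA were called both ways. APC truncation is known to keep beta-catenin active in SW620. CTNNB1, which encodes beta-catenin, had 1458, 136, 380 and 1150 counts in RKO at day 20 and 1022, 166, 242 and 906 at day 0. In SW620 it had 802, 121, 200 and 791 counts at day 20 and 2016, 349, 578 and 1637 at day 0. All 4 guides were depleted in SW620, with a median of -0.97 log2 against 0.18 in RKO, and the difference was 1.24. TCF7L2, its DNA-binding partner, had 1619, 1308, 753 and 1694 counts in RKO at day 20 and 1169, 991, 544 and 975 at day 0. In SW620 TCF7L2 had 993, 636, 502 and 1047 counts at day 20 and 1752, 1555, 1010 and 2187 at day 0. Every TCF7L2 guide lay above 0 in RKO and below 0 in SW620, for a difference of 0.89. Its RKO median was 0.22 log2, where non-targeting guides lay at 0.33.

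Of 21 Wnt and beta-catenin effectors, 5 were called less depleted in RKO (23.8%, against 3.54% of all genes), none more, and CTNNB1 and TCF7L2 were called both ways. BCL9L, a coactivator bound to beta-catenin, stood at 0.88 and WLS, which escorts Wnt ligands out of the cell, at 0.72. MYC, a target of the pathway, stood at 1.18 by scaling. MYC was depleted in both lines, at -2.61 log2 in RKO and -1.61 in SW620, so that its sign turned to -1.43 without scaling. The list's median of 0.20 was not far from the 0.07 of all genes. None of 14 genes of the destruction complex and other Wnt restraints was called. APC lay at 0.06 log2 in RKO and 0.17 in SW620, and ZNRF3, a ligase that removes Wnt receptors, at a difference of 0.78 with 1 guide on the other side.

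Transcription factors of the intestinal epithelium joined this side. ASCL2, a Wnt-driven factor of intestinal stem cells, had 405, 436, 709 and 218 counts in RKO at day 20 and 210, 326, 451 and 154 at day 0. In SW620 ASCL2 had 19, 248, 391 and 148 counts at day 20 and 386, 604, 797 and 400 at day 0. All its guides lay above 0 in RKO and below 0 in SW620, for a difference of 1.25. In SW620 1 guide lay far lower than the others. The RKO median of ASCL2 was 0.33 log2, where non-targeting guides also lay at 0.33. KLF5 and SOX9, factors of crypt cells, stood at 0.88 and 0.85 with SW620 medians of -0.64 and -0.67 log2 and RKO medians of -0.09 and 0.01. TFAP4 (0.67), a MYC target, and ID2 (0.51) were called by scaling alone. These were 5 of 21 genes in the list (23.8%, against 3.54% of all genes), 3 of them both ways (0.409% of all genes). The list median was 0.13. The hindgut factor CDX2, at 0.17, was not called.

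The G1 machinery had 4 of 16 genes called less depleted in RKO (25%, against 3.54% of all genes) and 3 both ways (0.409% of all genes). CDK6, a kinase that starts the cell cycle with D-type cyclins, had 192, 105, 177 and 16 counts in RKO at day 20 and 170, 255, 265 and 128 at day 0. In SW620 CDK6 had 138, 195, 133 and 83 counts at day 20 and 487, 477, 683 and 387 at day 0. The difference was 1.59, with depletion in both lines (-1.14 log2 in RKO and -1.54 in SW620) but uneven guides in RKO. TFDP1, the partner of E2F factors, stood at 1.17 and CCND1, cyclin D1, at 0.83. CDK4 lay at 0.06 and CCNE1 at -0.06. The list median was 0.31 by scaling and turned to -0.09 log2 without scaling.

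Peroxisome biogenesis was the list with the largest share of calls toward SW620. Peroxins bring enzymes into peroxisomes, which shorten very long fatty acids and make ether lipids. Of 13 peroxins, 9 (69.2%, against 3.54% of all genes) were called less depleted in RKO, none more, and 3 both ways (against 0.409%). The median was -0.19 log2 in RKO and -0.62 in SW620, and the median difference was 0.76. It was 0.40 by the running median and 0.37 log2 without scaling. PEX10, a ubiquitin ligase subunit of the import machinery, had 414, 1101, 567 and 256 counts in RKO at day 20 and 617, 871, 486 and 261 at day 0. In SW620 PEX10 had 446, 941, 458 and 186 counts at day 20 and 1083, 2062, 1108 and 564 at day 0, and the difference was 1.0. PEX5, the receptor that carries cargo in, stood at 0.91. PEX26, of the export step that recycles PEX5, stood at 0.78 and PEX13, of the docking complex, at 0.76, both by scaling alone. PEX7 (0.20), PEX16 (0.22) and PEX3 (-0.34) were not called.

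SAGA, a histone acetyltransferase and deubiquitinase coactivator, had 4 of 17 genes called less depleted in RKO (23.5%, against 3.54% of all genes), with a median of 0.44 by scaling but 0.08 by the running median. KAT2A, its acetyltransferase, stood at 0.79 and was called both ways. TADA2B, TADA1 and CCDC101, members of the same complex, stood at 0.71, 0.63 and 0.59 by scaling alone, while the deubiquitinase USP22 lay at -0.14.

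Of 26 homologous recombination genes, 2 (7.69%) were called more depleted in RKO and 3 (11.5%) less, against 1.43% and 3.54% of all genes, with a median of 0.03. BRCA1, which directs repair by homologous recombination, had 137, 109, 193 and 203 counts in RKO at day 20 and 403, 208, 553 and 367 at day 0. In SW620 BRCA1 had 279, 140, 322 and 400 counts at day 20 and 1040, 549, 1353 and 979 at day 0. In log2 the lines were alike (-1.44 in RKO and -1.47 in SW620), so the scaled difference of 1.50 comes with a sign of -0.18 log2 without scaling. MRE11A and RAD50, partners in the complex that trims broken ends, stood at -0.70 and -0.67, toward RKO.

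The lists not described above had median differences between -0.08 and 0.29, against 0.07 over all genes, and single members stood out. In the neddylation and cullin list 5 of 34 genes (14.7%) were called more depleted in RKO, 2 of them both ways, and 3 (8.82%) less, none both ways, against 1.43% and 3.54% of all genes. Its median was -0.04, and the adaptor TCEB1, elongin C, stood at -0.64. GCLC, which makes the first precursor of glutathione, stood at -1.18 by scaling alone (-1.09 by the running median, not called), and GMPS, of guanine nucleotide synthesis, at -0.67. IMPDH2, 1 step before GMPS, stood at 1.42 on the other side, with -0.79 log2 in RKO and -1.27 in SW620, also by scaling alone (0.81 by the running median, not called). PPP2R2A, a regulatory subunit of protein phosphatase 2A, stood at -1.26 and ASF1A, a histone chaperone, at -1.01. HSPA14, a ribosome-bound chaperone, stood at -0.99 and TTC7A, of the complex that holds a phosphatidylinositol kinase at the plasma membrane, at -0.95. HSD17B12, of very long chain fatty acid synthesis, stood at -0.72, and ITGAV, an integrin alpha subunit, at -0.51. CUL5, a cullin scaffold, stood at -0.73 by scaling alone and at -0.09 by the running median. YAP1, the Hippo pathway coactivator, stood at 0.89, FLCN, a regulator of mTORC1, at 0.65, and CDKN1B, an inhibitor of cyclin-dependent kinases, at 0.55, all by scaling alone. BCL2L1, which encodes the survival protein BCL-XL, reached 1.86 but was not called, with 1 guide at -0.06.

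Growth genes define the scale, so their lists are given as a description. The 68 cytosolic ribosomal protein genes had a median difference of 0.11 by scaling, -0.27 by the running median and -2.71 log2 without scaling. Of the 68, 12 (17.6%, against 3.54% of all genes) were called less depleted in RKO, none both ways. RPS26 (1.95) and RPL8 (1.87) were the furthest, at -1.0 and -1.69 log2 without scaling. PSMA7, of the proteasome, and MCM7, of the replicative helicase, stood at -0.64 and -0.57, both called both ways.

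Beside the lists, 8 genes called less depleted in RKO differed by at least 1 log2 without scaling, ASCL2 among them. DNAJC9, a histone co-chaperone, had 98, 106, 78 and 117 counts in RKO at day 20 and 143, 74, 104 and 287 at day 0. In SW620 DNAJC9 had 58, 17, 108 and 305 counts at day 20 and 355, 144, 426 and 657 at day 0, and its difference was 2.16. PPP1R15B, which directs a phosphatase to the initiation factor eIF2 alpha, stood at 1.50, with guides between 1.42 and 2.02. HES7, a repressor of the HES family, stood at 1.20, the adenylate cyclase ADCY1 at 1.15, the homeobox gene HOXC13 at 0.94 and the tektin TEKT2 at 0.77, TEKT2 by scaling alone. GPR89B, at 1.67 by scaling alone, has a near-identical gene copy, GPR89A, so its guides may cut more than 1 site and its value is uncertain. Toward RKO, PRPF39, a splicing factor of the U1 particle, stood at -1.51 and PITRM1, a peptidase of mitochondrial presequences, at -1.44.

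A stretch of neighbouring genes differed together. Genes were put in order by the RefSeq table of GRCh38.p14, used for neighbours only, which placed 18897 of them. Medians over windows of 25 genes ranged between -0.25 and 0.67, and those at least 0.4 from 0 all fell on 1 chromosome. The longest run held 101 genes from CMTM4 to CMTR2. Their median was -0.15 log2 in RKO and -0.53 in SW620, with a median difference of 0.56. Of the 101 genes, 94 lay above 0, 45 were called less depleted in RKO and 12 both ways. Over all genes 3.54% were called less depleted in RKO and 0.409% both ways. The run was picked by window medians of this same difference, so its high counts are in part built in and are a description only. Another 5 runs of 4 to 15 genes followed on the same chromosome, as far as CMIP.

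Within this stretch a few genes are given, chosen after their values had been seen. SLC9A5, a sodium-proton exchanger, had 451, 282, 479 and 288 counts in RKO at day 20 and 362, 209, 464 and 139 at day 0. In SW620 SLC9A5 had 370, 176, 355 and 138 counts at day 20 and 715, 535, 856 and 373 at day 0, a difference of 1.26. PDF, a mitochondrial deformylase, stood at 1.25 and THAP11, a transcription factor, at 1.09. VPS4A, an ATPase of membrane scission known for its paralog VPS4B, stood at 1.01 by scaling alone, where its 24 neighbours had a median of 0.55. CMIP, at the end of the last of the shorter runs, stood at 1.23. Outside these runs, CTNNB1, TCF7L2, ASCL2, CDK6 and PEX10 had neighbour medians of 0.05, 0.09, 0.15, -0.01 and 0.13. With the neighbours' median subtracted, an alternative added after the data had been seen, 319 of the 675 genes were still called less depleted in RKO and 254 of the 272 more depleted.

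**Figure D5:**
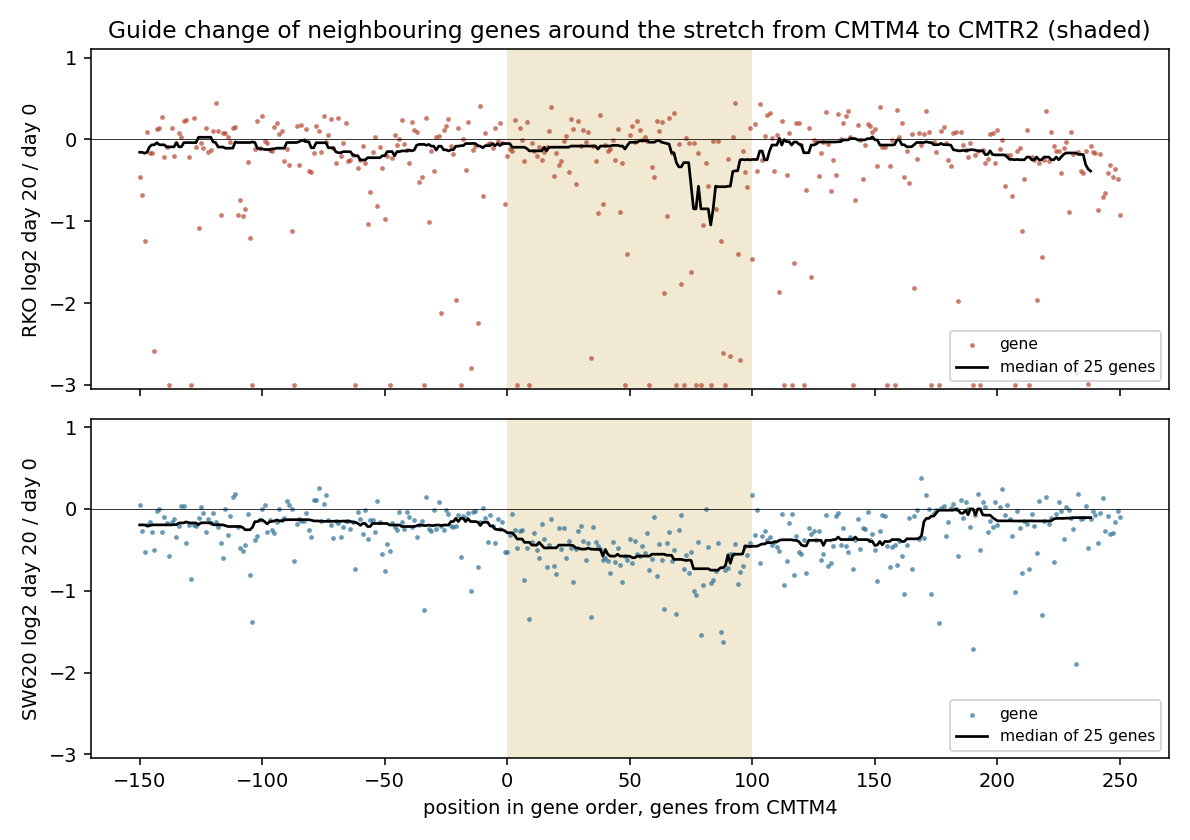
Log2 day 20 over day 0 change of genes in chromosomal order around the stretch from CMTM4 to CMTR2 (shaded), in RKO (top) and SW620 (bottom), with points for genes (those below -3 drawn at -3) and a line for the median of 25 genes. The SW620 line runs lower across the shaded 101 genes, whose median is -0.53 in SW620 and -0.15 in RKO.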

How the data were processed

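The deposited tables hold raw counts of reads per guide, whole numbers and 1 column per library. The submitters' processing notes name cutadapt 4.0 and also MAGeCK 0.5.7, whose roles and settings, like a genome build, are not given in the sources used here. The authors' normalized tables are the same counts times 1 constant per column and were not used. Of 77441 guides in both tables, 76639 had at least 50 counts at day 0 in both lines and were kept, and 43 genes with fewer than 3 such guides were left out. Counts were divided by median-ratio size factors within a line, 5 was added, and the log2 change was set to 0 at olfactory receptor guides and scaled so that the median of 263 growth genes was -1. A gene's value is the median over its guides. The running median spanned 501 genes. Medians of guide differences need not equal differences of medians.

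Genes were named as the 12 furthest called genes per direction with an unscaled difference of at least 1 log2, called members of each list (up to 6, otherwise the 2 furthest), and the furthest members of growth lists, some lists being given by counts and median alone. Others were named after their values were seen. The 48 lists, the members and the rules were chosen with earlier results of these data known, and 7 of 1244 list symbols were not matched. The steps were tested on simulated data with guide noise at the SD of non-targeting guides. Olfactory receptor guides scattered more (0.58 log2 in RKO, 0.32 in SW620), so the simulation does not show how the call rule fares at that noise. Non-targeting guides had an SD of 0.296 log2 in RKO and 0.203 in SW620, where counting alone gives 0.0697 and 0.0564, so no counting intervals are given. There were 14 planned and 2 added alternatives. Python 3.11.15, numpy 2.4.6, pandas 2.3.3 and matplotlib 3.10.9 were used. The other 10 libraries do not enter the comparison, and 4 of them, untreated activation libraries, give the values in the closing section. A few genes are not reported here.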

Additional observations from a re-analysis of the deposited data

Results flagged for a closer look

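For 12 named genes, every kept guide moved one way between day 0 and day 20 in RKO and the opposite way in SW620. Named genes were chosen largely for a called difference, so opposite moves are in part built in and 12 is a description only. The share of all genes with this pattern is not given. With 1 library per condition this difference was not tested. The differences, RKO minus SW620 in log2 without scaling, were -4.91 for NDUFV1, -4.88 for GNPNAT1, -3.33 for PITRM1, -3.11 for PDHA1, -2.38 for MLST8 and -2.22 for ASF1A, whose guides fell in RKO and rose in SW620. The SW620 rises were small, between 0.02 and 0.18 for NDUFV1 and between 0.20 and 0.68 for PDHA1, and the zero of the scale at olfactory receptor guides lies 0.12 below non-targeting guides in SW620. The opposite pattern, a rise in RKO and a fall in SW620, was seen at 1.15 for HES7, 1.11 for ASCL2, 1.08 for TEKT2, 0.89 for TCF7L2, 0.79 for PHLPP2 and 0.77 for SHMT1. Non-targeting guides lie 0.33 above the zero in RKO. PHLPP2, a phosphatase that acts on AKT, lies in the run of 9 genes from ZNF23 to ZNF821 beside the 101-gene stretch, where its neighbours had a median difference of 0.43.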

How the results depend on the processing

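The counts of called genes, 272 more depleted in RKO and 675 less depleted, moved by over 1.5 times under some alternatives. They were 114 and 211 at a threshold of 0.75 and 61 and 80 at a threshold of 1. With 1 guide allowed on the other side they were 505 and 1234. Without scaling, at 1 log2, they were 1698 and 9, and by the running median alone 513 and 85. The counts called both ways were 175 and 78, and those after subtraction of the neighbours' median 443 and 339. Under 8 other settings (zero at non-targeting guides, pseudocounts of 1 and 20, day 0 minimum of 0 or 200 counts, total-count scaling, mean over guides, at least 4 guides) and growth lists without cytosolic ribosomal proteins, both counts stayed within 1.5 times. Without scaling the sign turned for RPL8 (-1.69), MYC (-1.43), RPS26 (-1.0), ATF4 (-0.58), BRCA1 (-0.18), LAMTOR2 (-0.16), GRB2 (-0.11) and PTPN11 (-0.08), and for RPL8 by the running median too (-0.062). This follows from dividing SW620 by its weaker depletion. Of 105 called genes checked, 67 were called under every alternative outside the changed thresholds, the unscaled difference and the stricter day 0 and guide minimums. No paired analysis was possible because there was 1 library per condition. Guides at 0 counts set a floor for depletion, as for KDSR in RKO.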

Other observations

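Activation screens of the same lines, in which dCas9-VP64 raises transcription of the targeted gene, were read for the named genes as a separate readout that shares no library with the knockout screens. Guides differ between the lines' activation tables, and the untreated SW620 library at day 20 held 62 counts for the median guide, whereas the RKO library held 547, so values are given side by side without a difference. Olfactory receptor genes had a central 95% range of -0.74 to 0.49 log2 in RKO and -0.48 to 0.37 in SW620. Activation guides of PHGDH, the serine enzyme, had medians of -1.73 log2 in RKO and -1.04 in SW620, both below that range. Single PHGDH guides lay between -1.87 and -0.52 in RKO and between -1.81 and 0.22 in SW620. ASNS had medians of -1.07 in RKO and -0.61 in SW620, also below the range in both. Its single guides lay between -1.19 and -0.39 in RKO and between -0.62 and -0.11 in SW620. HES7 lay at -0.77 in RKO and -1.37 in SW620. Single HES7 guides lay between -2.35 and 0.17 in RKO and between -2.14 and -1.11 in SW620. SOX9 lay below the range in RKO at -0.94 and inside it in SW620 at 0.01. CTNNB1 lay inside it in RKO at -0.40 and below it in SW620 at -0.72, with single SW620 guides between -2.86 and 0.42. MYC, CDK6 and ASCL2 lay inside the range in both lines. The genes given here are a part of those read, and others also lay outside the range. CDKN1A lay below it in both lines, at -1.32 in RKO and -1.12 in SW620. In SW620 alone, NDUFV1 (-0.94) and GMPS (-1.29) lay below it. Some lay above it, such as TRNAU1AP in RKO (0.54) and ADCY1 in SW620 (0.47).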
